A study of Mus musculus with 12 samples.

Results

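The 41 genes described here code for the machinery that copies DNA in S phase: the proteins that license origins, the MCM helicase and its activators, the sliding clamp and its loader, the replicative polymerases, the enzymes that supply deoxynucleotides, the chromatin factors of the fork and 3 regulators of S phase entry. They were taken by name from a list, out of 35523 genes summed from the RNA-seq of mouse cardiac fibroblasts, and all 41 were among the 18028 genes tested. The list was drawn up with earlier results of the same libraries known, and Mcm4 and Wdr76 were chosen by their measured response to transforming growth factor beta (TGF-β) in control cells, present there and lacking in knockdown cells. That choice drew on all 4 groups, so the TGF-β values and the siRNA values of these 2 genes are given as a description without a test. Counts of genes past the test are over the other 39 members.

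In G1 the origin recognition complex, Cdc6 and Cdt1 load the MCM2-7 ring onto DNA, and in S phase Cdc45 and the GINS complex join the ring to form the active helicase. DNA polymerase α and primase lay down primers, replication factor C loads the PCNA clamp, polymerases δ and ε copy the strands, and Fen1 and Lig1 join the fragments of the lagging strand. Most of these genes are transcribed under E2F factors as cells pass from G1 to S phase. Adult cardiac fibroblasts divide little in the healthy heart, and TGF-β, a cytokine released after injury, turns them into contractile, matrix-producing myofibroblasts.

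Cells came from the hearts of adult female and male wild type C57BL/6J mice, were grown in culture and kept in 0.1% FBS for 24 h before treatment. The 4 groups were histone H1.0 siRNA with TGF-β at 10 ng per ml, H1.0 siRNA with vehicle, scramble siRNA with TGF-β at the same dose and scramble siRNA with vehicle, with 3 biological replicates each. Histone H1.0 is the linker histone of cells that have slowed or left the cell cycle, and the study asked how its knockdown alters the response of fibroblasts to TGF-β. A knockdown by siRNA lowers the transcript without removing the gene, and the length of the TGF-β treatment is not given in the sources used here.

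H1f0, the gene of histone H1.0 on chromosome 15, was at 510 to 1075 normalized counts in the 6 siRNA libraries, against 2515 to 3033 in the 6 scramble libraries, without overlap. A normalized count is a read count per gene, scaled for composition by TMM and set to the mean library size. Library totals were 36.16 to 36.3 M reads in the siRNA TGF-β group, 21.39 to 35.47 in the siRNA vehicle group, 19.86 to 24.31 in the scramble TGF-β group and 21.17 to 24.41 in the scramble vehicle group. In every group the replicate 3 library differed most from the other two (chi-square per degree of freedom 27.4 to 69.3, against 9.41 to 17 between replicates 1 and 2). The main counts over the members and over the other replication, histone and cell cycle lists are therefore given with and without the replicate 3 libraries. The fibroblast marker list was far above the others, at 919610 to 1029248 summed normalized counts in the siRNA TGF-β libraries and 818243 to 1071749 in the other 9. The sum hides changes of single markers, which are given below with the other marker lists.

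Promoter sequence was available from RefSeq (GRCm38.p6, from 250 bases before to 50 bases after a start) for 34 of the 41 members. An E2F site was searched on both strands as TTTCCCGC, TTTCGCGC, TTTGCCGC or TTTGGCGC, with overlapping matches counted apart, and 14 of the 34 members held at least 1 match (41.2%), against 2.6% of the 27025 genes in the table. At least 2 matches were found in 5 members (14.7%), against 0.107% of all genes. The CCAAT box (CCAAT, both strands) was found in 19 members (55.9%) and in 41.1% of all genes. The stretches around the matches of 3 members that take part at different steps of replication are printed, with the matches in capitals. The 3 were chosen among the members with a match and did not change alike in every comparison. In siRNA cells TGF-β moved Mcm5 by 0.11, Mcm6 by 0.79 and Pola1 by −0.16 on the log2 scale. Mcm5 and Mcm6 are helicase subunits and Pola1 is the catalytic subunit of polymerase α. The stretches lie at chr8:75109341-75109382 on the plus strand, chr1:128359730-128359830 on the minus strand and chrX:93632271-93632308 on the minus strand.
Mcm5: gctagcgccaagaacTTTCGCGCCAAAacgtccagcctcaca
Mcm6: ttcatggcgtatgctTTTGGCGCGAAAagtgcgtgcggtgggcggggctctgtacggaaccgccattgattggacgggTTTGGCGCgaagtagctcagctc
Pola1: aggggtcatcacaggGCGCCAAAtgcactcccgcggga
The first capitals of Mcm5 and of Mcm6 each hold a pair of overlapping matches, one on each strand, which begin 153 and 149 bases before the start of Mcm5 and 110 and 106 bases before that of Mcm6. A further match of Mcm6 lies 47 bases before its start, and the Pola1 match lies 138 bases before its start. A match is a description of the letters in the window and not a binding measurement.

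Mcm4, a subunit of the MCM2-7 helicase on chromosome 16 (15623897 to 15637400), had 667, 661 and 725 normalized counts in siRNA cells with TGF-β and 889, 868 and 744 in siRNA cells with vehicle. It had 2616, 2643 and 2922 in scramble cells with TGF-β and 1495, 1243 and 1525 in scramble cells with vehicle. The scramble TGF-β libraries stood above all others and the siRNA TGF-β libraries below all others. TGF-β moved Mcm4 by −0.28 in siRNA cells and by 0.94 in scramble cells on the log2 scale. In vehicle-treated cells Mcm4 was 1.71-fold lower with the siRNA (−0.77 on the log2 scale). Both vehicle groups entered the choice of the gene, so no test is given. Unless another test is named, the adjusted p of other genes comes from the quasi-likelihood test of edgeR, adjusted after Benjamini and Hochberg over all genes. A gene was called where its adjusted p was under 0.01.

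Wdr76, a WD40 protein of chromatin at sites of replication and DNA damage, lies on chromosome 2 (121506723 to 121544860). Its normalized counts were 158, 151 and 161 in siRNA cells with TGF-β, 187, 182 and 173 in siRNA cells with vehicle, 479, 462 and 544 in scramble cells with TGF-β, and 200, 206 and 235 in scramble cells with vehicle. The order of the groups was the same as for Mcm4, but the vehicle groups lay closer together. On the log2 scale the TGF-β difference was −0.20 in siRNA cells and 1.21 in scramble cells. In vehicle-treated cells the siRNA value was −0.24, given without a test as for Mcm4.

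**Figure D1:**
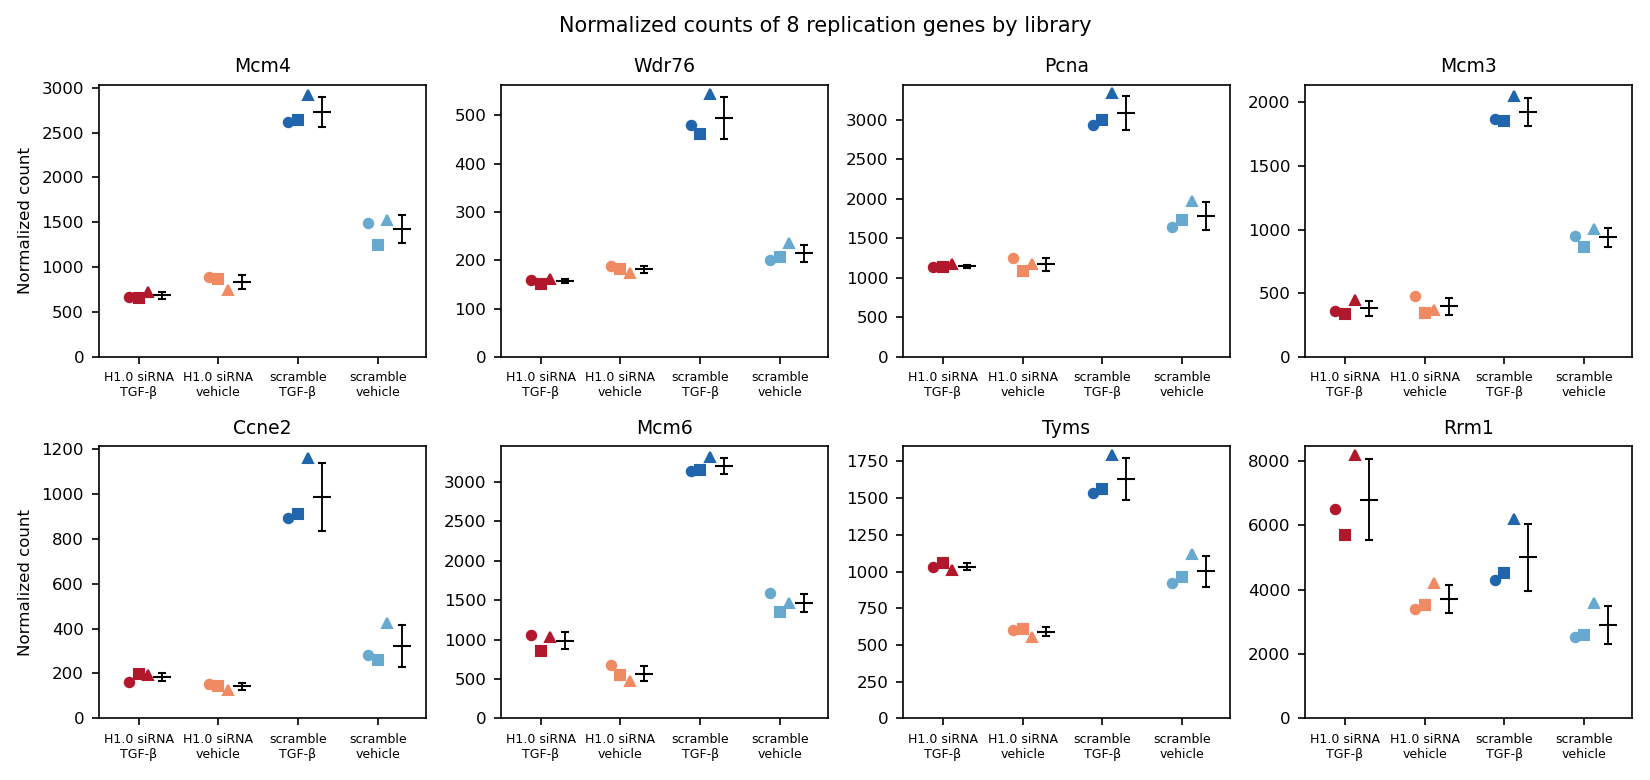
Normalized counts (vertical axes, from 0) of 8 members in the 12 libraries, with the H1.0 siRNA groups left of the scramble groups. Circles, squares and triangles are replicates 1, 2 and 3, and black bars give the mean and SD (n = 3). Mcm4, Wdr76, Pcna, Mcm3 and Ccne2 stood highest in the scramble TGF-β libraries. In siRNA cells Mcm6, Tyms and Rrm1 were also higher with TGF-β than with vehicle. Ccne2 was too, without overlap but by less and not called.

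TGF-β raised most of the other members in scramble cells. Of 39, 31 were called higher with TGF-β than with vehicle, 0 were called lower (0 also at an unadjusted p under 0.05 and with DESeq2 or limma-voom) and 8 did not pass, where 10.5% of all genes tested were called higher and 7.94% lower. The median log2 fold change of the 39 was 0.72, against −0.01 over all genes tested, and the values ran from 0.26 (E2f1) to 1.62 (Ccne2). In 38 of the 39 members all 3 scramble TGF-β libraries lay above all 3 scramble vehicle libraries, which held for 23.6% of all genes, and the exception was Tk1. The reverse order, found in 22.0% of all genes, was seen in no member. The count was 27 without the replicate 3 libraries. Leaving out scramble vehicle replicate 1 gave 17, leaving out its replicate 2 gave 18, and leaving out scramble TGF-β replicate 3 gave 20. In every alternative tried 13 of the 31 kept their call, and the 18 that lost it in at least 1 were Orc1, Orc6, Cdt1, Mcm5, Mcm7, Mcm10, Cdc45, Gins3, Rfc2, Rfc3, Rfc5, Prim1, Pold1, Pole, Pole2, Lig1, Rrm1 and Uhrf1.

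In siRNA cells TGF-β raised 3 of the 39 members, Mcm6, Rrm1 and Tyms, and 36 did not pass, where 9.14% of all genes were called higher. None was called lower by edgeR (6 at an unadjusted p under 0.05, 1 with DESeq2 and 0 with limma-voom), where 6.6% of all genes were. The median log2 fold change was −0.04, against −0.01 over all genes. All siRNA TGF-β libraries lay above all siRNA vehicle libraries in 6 of the 39 members, against 21.5% of all genes. These were Mcm6, Rrm1, Tyms, Rrm2, Ccne1 and Ccne2. They lay below in 6 (Rfc4, Rfc5, Pola2, Pold1, Lig1 and E2f1), against 21.1% of all genes. In a fit blocked on the replicate number, Lig1 (adjusted p = 0.0062) and E2f1 (adjusted p = 0.0041) were called lower by the same edgeR test. Both were also called lower without the 4 replicate 3 libraries.

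Whether the response differed between siRNA and scramble cells was tested as an interaction, the TGF-β effect in siRNA cells less that in scramble cells. The interaction was below 0 in 37 of 39 members, with a median of −0.82 on the log2 scale against 0.02 over all genes, and the exceptions were Rrm1 at 0.08 and Tyms at 0.11. None of the 39 passed the threshold in edgeR's fit, where 0.0444% of all genes did (0.0333% above 0 and 0.0111% below 0), and the smallest adjusted p was 0.022, for Pcna. At an unadjusted p under 0.05 there were 36 of 39, all below 0, against 11.9% of all genes in either direction and 6.03% below 0. Blocked on the replicate number, the same edgeR test called 7 members (Mcm2, Mcm3, Pcna, Pold1, Lig1, Chaf1a and Slbp), where 0.244% of all genes were called below 0. DESeq2 called 12 and limma-voom 0. The shares of all genes called by DESeq2 or limma-voom are not given here, so their counts have no such comparison.

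**Figure D2:**
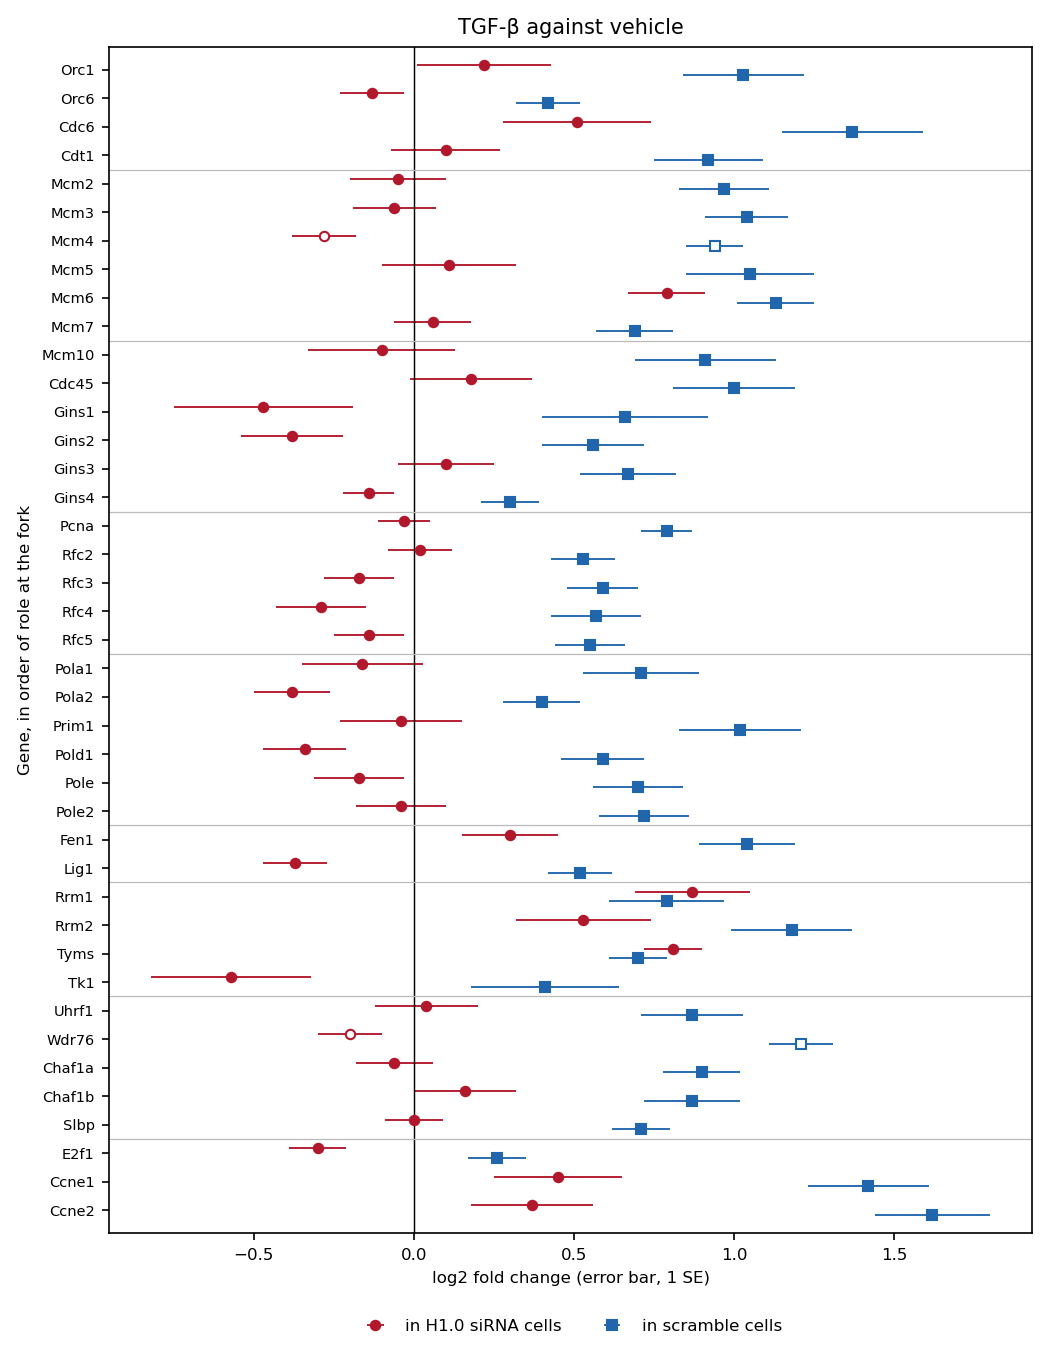
The log2 fold change of TGF-β against vehicle (horizontal axis) for each of the 41 members (vertical axis, ordered by role), in siRNA cells (red circles) and in scramble cells (blue squares), with error bars of 1 standard error. Open symbols are Mcm4 and Wdr76, which were chosen by these values, so their error bars are not to be read as a test. The scramble values are all above 0 whereas most siRNA values lie near 0, with Mcm6 at 0.79, Tyms at 0.81 and Rrm1 at 0.87.

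The siRNA lowered nearly the whole set in cells treated with TGF-β. Of 39 members 35 were called lower, 0 were called higher (1 at an unadjusted p under 0.05, and 0 with DESeq2 or limma-voom) and 4 did not pass (Gins4, Rfc2, Rrm1 and E2f1), where 11.3% of all genes were called lower and 13.0% higher. The median log2 fold change was −1.52, against 0.04 over all genes. In 36 of the 39 members all siRNA TGF-β libraries lay below all scramble TGF-β libraries, a pattern of 3790 of the 18028 genes (21.0%), and the exceptions were Rfc2, Rrm1 and E2f1. No member had the reverse order, against 25.5% of all genes. Without the replicate 3 libraries 34 were called lower. Rrm1 was called higher there and with the replicate block (adjusted p = 0.00027 from the edgeR test with the block).

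In vehicle-treated cells the siRNA lowered 20 of the 39 members, raised 2 (Rfc2 and E2f1) and left 17 that did not pass, where 11.2% of all genes were called lower and 13.4% higher (24.7% in all). All siRNA vehicle libraries lay below all scramble vehicle libraries in 25 of the 39 members (22.4% of all genes) and above them in 3, Rfc2, Rfc4 and E2f1 (25.5% of all genes). The median log2 fold change was −0.69, against 0.00 over all genes. All 4 licensing genes and all 5 MCM subunits other than Mcm4 were called, but none of the 6 helicase activators, at log2 fold changes from −0.89 to 0.15. Whether the roles differ was not tested. Without the replicate 3 libraries 17 were called lower and 3 higher.

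The siRNA and TGF-β comparisons share libraries, so the 4 groups are best read side by side. In 28 of the 39 members the siRNA TGF-β libraries lay below all scramble vehicle libraries (26.0% of all genes), and in 2, Rfc2 and Rrm1, above them (28.4% of all genes). For the 41 members summed, the normalized count was 19874 ± 2034 in siRNA cells with TGF-β, 16531 ± 735 in siRNA cells with vehicle, 40419 ± 3096 in scramble cells with TGF-β and 22568 ± 2857 in scramble cells with vehicle (SD, n = 3 each). Rrm1 carried much of the first difference, since without it the sums were 13074 ± 780, 12818 ± 911, 35407 ± 2057 and 19672 ± 2278 in the same order. Both sums include Mcm4 and Wdr76, which were chosen by their response, and are a description only. In the same order Mcm4 averaged 685, 834, 2727 and 1421, and Wdr76 averaged 157, 181, 495 and 214. RNA of a whole culture cannot tell fewer cells in S phase from less of each transcript per cell.

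**Figure D3:**
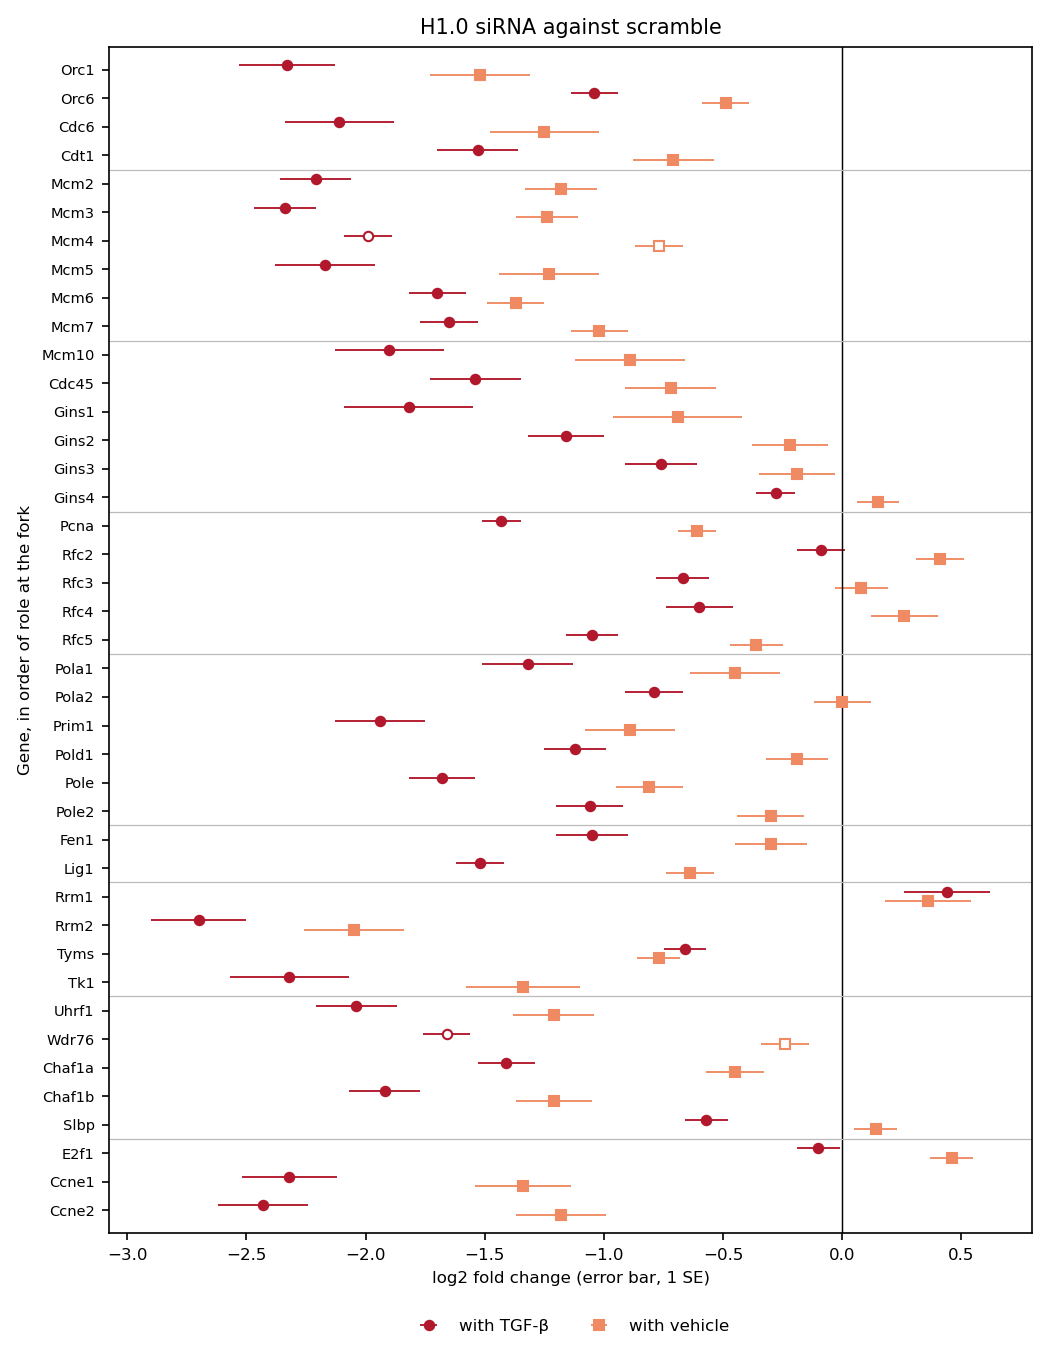
The log2 fold change of H1.0 siRNA against scramble (horizontal axis) for each of the 41 members (vertical axis, ordered by role), with TGF-β (red circles) and with vehicle (orange squares), and error bars of 1 standard error. Open symbols are Mcm4 and Wdr76, whose choice drew on these groups, so their error bars are not to be read as a test. The values with TGF-β run from −2.70 (Rrm2) to 0.44 (Rrm1).

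Orc1, Orc6, Cdc6 and Cdt1 prepare origins in G1. All 4 were raised by TGF-β in scramble cells and lowered by the siRNA under both treatments, and none was called for TGF-β in siRNA cells. Orc1, the large ATPase subunit of the origin recognition complex, had 24.8, 22.4 and 26.4 normalized counts in siRNA cells with TGF-β and 16.9, 24.9 and 21.4 in siRNA cells with vehicle. In scramble cells it had 122, 131 and 118 with TGF-β and 58.8, 49.6 and 73.7 with vehicle. The siRNA groups overlapped with each other and lay below every scramble library. Knockdown changed Orc1 by −2.33 ± 0.20 (standard error) in the presence of TGF-β (edgeR, adjusted p = 9.2e-06) and by −1.52 with vehicle (adjusted p = 0.00021) on the log2 scale. With an offset for transcript length the vehicle value was −0.88 and no longer called (adjusted p = 0.12).

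Cdc6, the loader that brings the MCM ring to origins, had 86.9, 76.4 and 124 normalized counts in siRNA cells with TGF-β, 79.8, 53.3 and 68.0 in siRNA cells with vehicle, 399, 390 and 452 in scramble cells with TGF-β and 138, 133 and 210 in scramble cells with vehicle. It was 2.58-fold higher with TGF-β among scramble cells (standard error 0.22 on the log2 scale, adjusted p = 0.00099 by edgeR) and 4.32-fold lower with the siRNA under TGF-β (adjusted p = 3.4e-05). Within siRNA cells the TGF-β change of 0.51 (standard error 0.23) did not pass (adjusted p = 0.13). Cdt1, its partner in loading, was 1.89-fold higher with TGF-β among scramble cells (adjusted p = 0.0018 by edgeR) and 2.88-fold lower with the siRNA and TGF-β (adjusted p = 4.2e-05). Orc6 changed least, by 1.34-fold with TGF-β in scramble cells (adjusted p = 0.0075) and 2.06-fold lower with the siRNA and TGF-β (adjusted p = 1.5e-05). With vehicle the siRNA call of Cdt1 (adjusted p = 0.007) was lost in 12 alternatives, with an adjusted p of 0.057 without the replicate 3 libraries, and that of Orc6 in 3, without siRNA vehicle replicate 1 or 2 or with only the compared groups fitted. The Orc6 call for TGF-β in scramble cells was lost in 13 alternatives (adjusted p from 0.01 to 0.035), among them leaving out any one of the 6 scramble libraries. The Cdt1 locus overlaps another annotated gene on the same strand, Gm20388, and the Orc6 locus overlaps Vps35 on the other strand. Gm20388 averaged 2350 and 2150 normalized counts in siRNA cells with TGF-β and vehicle. In scramble cells it averaged 3180 and 2480, so it stood far above Cdt1 in every group. Whether its reads enter the Cdt1 count was not tested.

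The MCM2-7 subunits moved together with 1 exception in siRNA cells. Mcm2, Mcm3, Mcm5, Mcm6 and Mcm7 all rose with TGF-β in scramble cells, by log2 fold changes from 0.69 (Mcm7) to 1.13 (Mcm6), and all were lower with the siRNA, from −2.34 (Mcm3) to −1.65 (Mcm7) with TGF-β and from −1.37 (Mcm6) to −1.02 (Mcm7) with vehicle. Mcm3, on chromosome 1, had 363, 333 and 444 normalized counts in siRNA cells with TGF-β, 474, 346 and 370 in siRNA cells with vehicle, 1870, 1856 and 2053 in scramble cells with TGF-β and 953, 859 and 1006 in scramble cells with vehicle. Both siRNA groups covered the same range, less than any scramble library. Mcm3 was 5.07-fold lower with the siRNA and TGF-β (standard error 0.13 on the log2 scale, adjusted p = 9.9e-07 by edgeR), and its interaction was −1.10 (standard error 0.18, adjusted p = 0.035, and 0.0047 once blocked on replicate).

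Mcm6 had 1054, 859 and 1036 normalized counts in siRNA cells with TGF-β and 672, 556 and 475 in siRNA cells with vehicle. In scramble cells it had 3134, 3158 and 3315 with TGF-β and 1585, 1344 and 1464 with vehicle. TGF-β raised it in both kinds of cell, by 1.73-fold in siRNA cells (standard error 0.12 on the log2 scale, adjusted p = 0.00078 by edgeR) and 2.19-fold in scramble cells (adjusted p = 0.0001), and the interaction was −0.33 (standard error 0.17, adjusted p = 0.48). Its level with TGF-β in siRNA cells still lay below every scramble vehicle library. The siRNA cell call was lost when only the groups compared were fitted (adjusted p = 0.011). Mcm2, Mcm5 and Mcm7 had interactions of −1.03, −0.94 and −0.63, with adjusted p = 0.063, 0.20 and 0.15 by edgeR. The Mcm7 locus overlaps Cops6 and Ap4m1 on the other strand.

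The helicase activators changed less evenly. Mcm10 and Cdc45, which turn the loaded ring into a working helicase, were 1.88-fold (adjusted p = 0.0097 by edgeR) and 2.00-fold (adjusted p = 0.0022) higher with TGF-β among scramble cells and 3.74-fold and 2.91-fold lower with the siRNA and TGF-β (adjusted p = 7.8e-05 and 8.6e-05). The Mcm10 call in scramble cells was lost in 13 alternatives (adjusted p from 0.01 to 0.046), among them RLE factors, thinning, the length offset and leaving out any one scramble library other than vehicle replicate 3. In vehicle-treated cells the siRNA values were −0.89 for Mcm10 (adjusted p = 0.01, just above the threshold, or 0.0017 with the replicate block) and −0.72 for Cdc45 (adjusted p = 0.012, or 0.0027 with the block). The Cdc45 locus overlaps Ufd1 on the other strand.

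Of the 4 GINS subunits, Gins3 was called higher with TGF-β among scramble cells (1.59-fold, adjusted p = 0.0072 by edgeR), and Gins1, Gins2 and Gins3 were called lower with the siRNA and TGF-β, by 3.52-fold, 2.24-fold and 1.69-fold. Gins1 had 23.3, 20.1 and 29.5 normalized counts in siRNA cells with TGF-β and 69.4, 88.2 and 99.9 in scramble cells with TGF-β, without overlap and at the lowest counts of the GINS genes. Gins4 had 545, 594 and 538 normalized counts in siRNA cells with TGF-β, 646, 657 and 544 in siRNA cells with vehicle, 724, 652 and 664 in scramble cells with TGF-β and 543, 577 and 543 in scramble cells with vehicle. Its groups spanned a narrow range, and the siRNA value of −0.28 with TGF-β (standard error 0.08, adjusted p = 0.022) passed with the replicate block (adjusted p = 0.0091). The call for Gins3 with the siRNA and TGF-β was lost without scramble TGF-β replicate 1 (adjusted p = 0.013) or siRNA TGF-β replicate 2 (adjusted p = 0.012).

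Pcna, the clamp that tethers polymerases to DNA, lies on chromosome 2 (132249162 to 132253314) and had little spread. It had 1141, 1134 and 1168 normalized counts in siRNA cells with TGF-β and 1244, 1087 and 1173 in siRNA cells with vehicle. In scramble cells it had 2932, 2992 and 3333 with TGF-β and 1641, 1729 and 1976 with vehicle. The siRNA groups covered one range and the scramble groups were apart from it and from each other. Pcna was 1.73-fold higher with TGF-β among scramble cells (standard error 0.08 on the log2 scale, adjusted p = 8.7e-05 by edgeR) and had a change of −0.03 in siRNA cells (standard error 0.08, adjusted p = 0.86). The interaction of −0.82 (standard error 0.11) had an adjusted p of 0.022, or 0.0035 with the replicate block. The siRNA lowered Pcna 2.69-fold with TGF-β (adjusted p = 1e-06) and 1.53-fold with vehicle (adjusted p = 0.00017).

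The subunits of the clamp loader were lower with the siRNA only in part. Rfc3, Rfc4 and Rfc5 were 1.59-fold, 1.52-fold and 2.07-fold lower with the siRNA and TGF-β (adjusted p = 0.00067, 0.0057 and 2.4e-05 by edgeR), and none of them was called with vehicle. Rfc2 had 537, 511 and 553 normalized counts in siRNA cells with TGF-β, 550, 460 and 563 in siRNA cells with vehicle, 541, 561 and 601 in scramble cells with TGF-β and 375, 357 and 451 in scramble cells with vehicle. Its scramble vehicle libraries were the low ones and the other 3 groups overlapped. Rfc2 was raised by the siRNA with vehicle (1.33-fold, adjusted p = 0.009 by edgeR), a call lost in most alternatives tried, and by TGF-β in scramble cells (1.44-fold, adjusted p = 0.0031). Only 29.0% ± 3.14 to 37.4% ± 6.03 (SD, n = 3) of its reads in a group were assigned to its protein-coding transcript, and its leading transcript over the libraries was one with a retained intron. On the coding transcript alone Rfc2 had log2 ratios of group means of 0.65 for TGF-β in scramble cells and 0.37 in siRNA cells. The Rfc5 call with the siRNA and TGF-β was lost with the transcript length offset (adjusted p = 0.058), and that of Rfc4 without any one of 5 of the 6 TGF-β libraries (adjusted p from 0.011 to 0.024). The exception was siRNA TGF-β replicate 1.

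All 6 polymerase and primase subunits were lower with the siRNA under TGF-β, from −1.94 (Prim1) to −0.79 (Pola2) on the log2 scale. Prim1, the catalytic primase subunit, had 83.8, 78.7 and 117 normalized counts in siRNA cells with TGF-β, 103, 104 and 79.9 in siRNA cells with vehicle, 323, 372 and 377 in scramble cells with TGF-β and 137, 196 and 197 in scramble cells with vehicle. The siRNA libraries all lay below the scramble libraries. Prim1 was 2.03-fold higher with TGF-β among scramble cells (adjusted p = 0.0021 by edgeR) and 3.84-fold lower with the siRNA and TGF-β (adjusted p = 2e-05). Pole, the catalytic subunit of the leading strand polymerase, was 3.2-fold lower with the siRNA and TGF-β and 1.75-fold lower with the siRNA and vehicle (adjusted p = 6.9e-06 and 0.00092). With the length offset the vehicle value of Pole was −0.52 and no longer called (adjusted p = 0.027), and the vehicle call of Prim1 (adjusted p = 0.0039) was lost in 7 alternatives (adjusted p from 0.011 to 0.023).

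Pold1, the catalytic subunit of polymerase δ, had 298, 272 and 248 normalized counts in siRNA cells with TGF-β, 399, 322 and 314 in siRNA cells with vehicle, 617, 545 and 617 in scramble cells with TGF-β and 441, 339 and 402 in scramble cells with vehicle. TGF-β libraries were the lowest of the siRNA cells and the highest of the scramble cells. Its interaction was −0.93 (standard error 0.18, adjusted p = 0.053 by edgeR, or 0.0066 with the replicate block). Pola2, the accessory subunit of polymerase α, followed the same order, with an interaction of −0.78 (adjusted p = 0.08), and its siRNA value with vehicle was 0.00 (standard error 0.12, adjusted p = 0.99). Pola1 was 2.49-fold and Pole2, an accessory subunit of polymerase ε, 2.08-fold lower with the siRNA and TGF-β (adjusted p = 0.00024 and 0.00016). The Pole and Pole2 loci each overlap another annotated gene on the same strand, Gm15791 (at most 1.69 normalized counts on average in a group) and Gm49384 (58.0 to 94.4).

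Fen1, the flap endonuclease, and Lig1, the ligase that seals Okazaki fragments, both rose with TGF-β in scramble cells (2.05-fold and 1.43-fold, adjusted p = 0.00057 and 0.0021 by edgeR) and were lower with the siRNA and TGF-β (2.07-fold and 2.88-fold, adjusted p = 0.00027 and 1.5e-06). Lig1 had 303, 299 and 343 normalized counts in siRNA cells with TGF-β, 418, 406 and 397 in siRNA cells with vehicle, 867, 939 and 914 in scramble cells with TGF-β and 551, 634 and 717 in scramble cells with vehicle. None of its 4 groups overlapped with another. The TGF-β change of Lig1 in siRNA cells was −0.37 (standard error 0.10, adjusted p = 0.015) and its interaction −0.88 (standard error 0.14, adjusted p = 0.026, or 0.0056 with the block). Fen1-204, the leading transcript of Fen1, held 74.2% and 80.7% of its reads in siRNA cells with TGF-β and vehicle. In scramble cells it held 35.4% and 54.8%, so the Fen1 sum joins transcripts that did not change alike. Fen1 overlaps Tmem258 and Lig1 overlaps Zswim9, each on the other strand.

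The genes of deoxynucleotide supply split. Rrm2, the small subunit of ribonucleotide reductase that is made in S phase, had 235, 219 and 279 normalized counts in siRNA cells with TGF-β, 208, 141 and 160 in siRNA cells with vehicle, 1446, 1532 and 1784 in scramble cells with TGF-β and 602, 562 and 941 in scramble cells with vehicle. It was 6.50-fold lower with the siRNA and TGF-β (standard error 0.20 on the log2 scale, adjusted p = 4e-06 by edgeR) and 4.14-fold lower with the siRNA and vehicle (adjusted p = 2.7e-05), both the widest of the 41 members. Tk1, thymidine kinase of the salvage pathway, was 4.99-fold and 2.54-fold lower in the same comparisons (adjusted p = 3.2e-05 and 0.0012), with 45.0, 81.8 and 60.6 normalized counts in siRNA cells with TGF-β and 301, 296 and 338 in scramble cells with TGF-β. Its TGF-β changes, −0.57 in siRNA cells and 0.41 in scramble cells, did not pass (adjusted p = 0.11 and 0.21). Without the replicate 3 libraries the call of Tk1 with vehicle was lost (adjusted p = 0.015).

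Rrm1, the large subunit of the same reductase, had 6520, 5706 and 8174 normalized counts in siRNA cells with TGF-β and 3405, 3534 and 4201 in siRNA cells with vehicle. In scramble cells it had 4307, 4521 and 6206 with TGF-β and 2533, 2579 and 3574 with vehicle. TGF-β libraries lay above vehicle libraries in both kinds of cell, and the replicate 3 library was the highest of each group. TGF-β raised Rrm1 by 1.83-fold in siRNA cells (standard error 0.18 on the log2 scale, adjusted p = 0.0047 by edgeR, or 4e-06 with the replicate block) and by 1.73-fold in scramble cells (adjusted p = 0.0073). The call in siRNA cells was lost without siRNA TGF-β replicate 1 or 3 or siRNA vehicle replicate 1 or 2 (adjusted p from 0.012 to 0.025). The siRNA values were 0.44 ± 0.18 (standard error) under TGF-β (adjusted p = 0.083 by edgeR) and 0.36 with vehicle (adjusted p = 0.15, or 0.00097 with the block).

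Tyms, thymidylate synthase, had 1033, 1056 and 1007 normalized counts in siRNA cells with TGF-β and 604, 608 and 555 in siRNA cells with vehicle. In scramble cells it had 1535, 1561 and 1793 with TGF-β and 919, 964 and 1119 with vehicle. TGF-β raised it 1.75-fold in siRNA cells (standard error 0.09 on the log2 scale, adjusted p = 9.2e-05 by edgeR) and 1.63-fold in scramble cells (adjusted p = 0.00021), and the interaction was 0.11 (standard error 0.12, adjusted p = 0.81). The siRNA lowered it 1.58-fold with TGF-β (adjusted p = 0.00013) and 1.70-fold with vehicle (adjusted p = 5.9e-05). Between 55.6% and 62.9% of its reads in a group were assigned to protein-coding transcripts.

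Uhrf1, which recognizes hemimethylated DNA behind the fork, and Chaf1a and Chaf1b, the large and middle subunits of the chaperone that places new H3-H4, rose with TGF-β in scramble cells by 1.83-fold, 1.87-fold and 1.83-fold (adjusted p = 0.002, 0.00031 and 0.0013 by edgeR). They were 4.11-fold, 2.66-fold and 3.79-fold lower with the siRNA and TGF-β (adjusted p = 5.9e-06, 7.7e-06 and 5.3e-06). Chaf1a had 348, 335 and 381 normalized counts in siRNA cells with TGF-β, 407, 331 and 368 in siRNA cells with vehicle, 917, 953 and 960 in scramble cells with TGF-β and 463, 444 and 609 in scramble cells with vehicle. The siRNA groups overlapped and lay below the scramble groups. Its interaction was −0.96 (standard error 0.17, adjusted p = 0.04, and 0.0075 once blocked on replicate).

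Slbp binds the stem-loop of replication-dependent histone mRNAs, which end without a poly(A) tail. It had 1054, 1059 and 1035 normalized counts in siRNA cells with TGF-β, 1066, 966 and 1113 in siRNA cells with vehicle, 1506, 1481 and 1677 in scramble cells with TGF-β and 875, 892 and 1087 in scramble cells with vehicle. The scramble TGF-β libraries stood alone, and the other 3 groups overlapped. Slbp was 1.64-fold higher with TGF-β among scramble cells (adjusted p = 0.00028 by edgeR), at 0.00 in siRNA cells (standard error 0.09, adjusted p = 1.0) and had an interaction of −0.71 (adjusted p = 0.043, or 0.0064 with the block).

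The core histone genes, whose mRNAs Slbp binds, were lower with the siRNA under both treatments, where Slbp itself was called lower with TGF-β only. The 64 replication-dependent core histone genes summed to 14894 ± 688 normalized counts in siRNA cells with TGF-β, 17847 ± 1700 in siRNA cells with vehicle, 32400 ± 1703 in scramble cells with TGF-β and 24878 ± 2023 in scramble cells with vehicle (SD, n = 3 each). Of the 60 tested, 48 were called lower and 1 higher with the siRNA and TGF-β (median −1.73), and 29 lower and 1 higher with the siRNA and vehicle (median −0.80). With TGF-β, 0 were called higher and 3 lower in siRNA cells (0 higher at an unadjusted p under 0.05, 0 with DESeq2, median −0.37), and 13 higher and 1 lower in scramble cells (median 0.64). Without the replicate 3 libraries 58 were tested, of which 46 were called lower with the siRNA and TGF-β, 17 lower with the siRNA and vehicle, and 12 higher with TGF-β in scramble cells. Histone genes are near-identical in sequence, so the division of reads among them is uncertain.

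**Figure D4:**
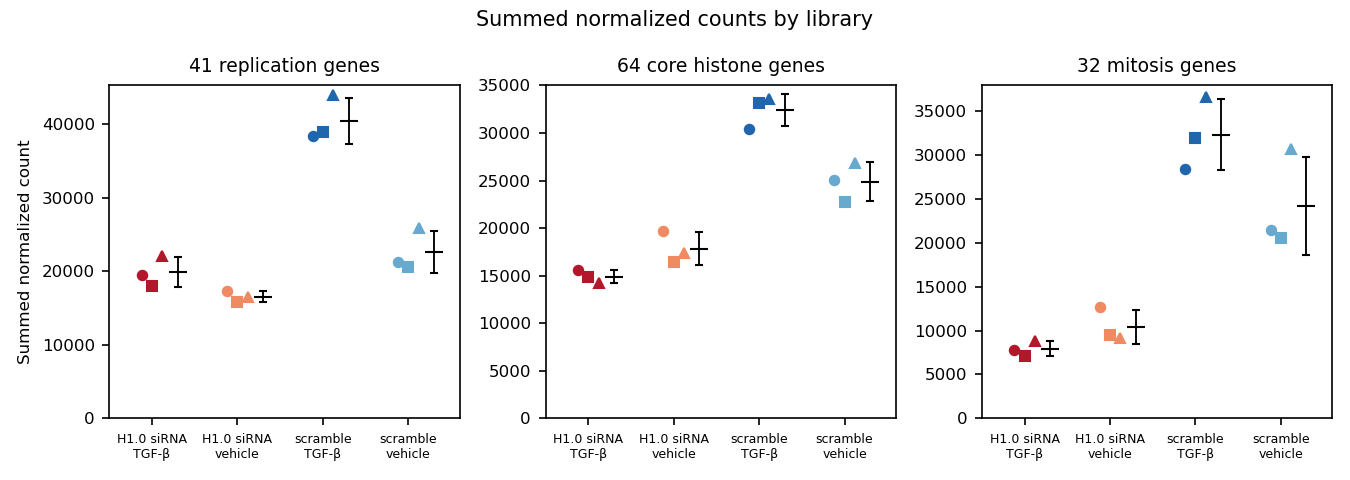
Summed normalized counts (vertical axes, from 0) of the 41 replication genes, the 64 core histone genes and 32 mitosis genes (Spc24 left out after its values were seen) in the 12 libraries, H1.0 siRNA groups left of scramble groups. Circles, squares and triangles are replicates 1, 2 and 3, and black bars give the mean and SD (n = 3). In all panels the 6 siRNA libraries lie below the scramble TGF-β libraries. The replication gene panel includes Mcm4 and Wdr76, which were chosen by their response.

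Ccne1 and Ccne2, the E-type cyclins that drive Cdk2 at S phase entry, had the widest TGF-β changes of the set in scramble cells. Ccne2 had 163, 196 and 192 normalized counts in siRNA cells with TGF-β, 155, 144 and 126 in siRNA cells with vehicle, 891, 911 and 1162 in scramble cells with TGF-β and 280, 258 and 427 in scramble cells with vehicle. All 4 groups were apart, and both siRNA groups lay below both scramble groups. Ccne2 was 3.07-fold higher with TGF-β among scramble cells (standard error 0.18 on the log2 scale, adjusted p = 0.00014 by edgeR), and in siRNA cells its change of 0.37 did not pass (standard error 0.19, adjusted p = 0.17). The siRNA lowered it 5.38-fold with TGF-β (adjusted p = 4.3e-06) and 2.27-fold with vehicle (adjusted p = 0.00056). Ccne1 was 2.68-fold higher with TGF-β among scramble cells (adjusted p = 0.00035) and 4.98-fold lower with the siRNA and TGF-β (adjusted p = 7.9e-06).

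E2f1, the transcription factor of the G1/S program, did not follow the E-type cyclins in its gene sum. It had 646, 671 and 724 normalized counts in siRNA cells with TGF-β, 841, 825 and 839 in siRNA cells with vehicle, 682, 692 and 819 in scramble cells with TGF-β and 554, 594 and 678 in scramble cells with vehicle. The siRNA vehicle libraries were the highest and both TGF-β groups overlapped. The siRNA raised it 1.37-fold with vehicle (standard error 0.09 on the log2 scale, adjusted p = 0.0025 by edgeR), a call lost without siRNA vehicle replicate 1 or 3 or scramble vehicle replicate 1 or 2 (adjusted p from 0.011 to 0.015). With TGF-β the siRNA value was −0.10 (adjusted p = 0.43). TGF-β changed it by 0.26 in scramble cells and by −0.30 in siRNA cells (adjusted p = 0.049 and 0.032 by edgeR). The interaction was −0.56 (adjusted p = 0.098, or 0.013 with the replicate block). E2f1-201, 1 of its 2 coding transcripts, held 89.9% and 87.8% of its reads in siRNA cells with TGF-β and vehicle, and 55.3% and 77.8% in scramble cells. The gene sum joins 2 transcripts that did not change alike.

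Levels can be compared between genes only per length, as TPM. In scramble cells with vehicle the members ran from 1.62 TPM (Orc1) to 98.7 TPM (Pcna), with a median of 14.4 TPM, and Rrm1 at 55.8 ± 9.58 TPM and Slbp at 42.9 ± 4.17 TPM (SD, n = 3) followed Pcna. Of the 40 pairs of neighbours in this order, 36 overlapped over their libraries. In siRNA cells with TGF-β, Rrm1 was first at 134 ± 32.4 TPM, above Pcna at 60.1 ± 3.17 TPM, and Orc1 was last at 0.73 ± 0.321 TPM.

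Other genes of replication and S phase were given by 4 lists, chosen like the members with earlier results known, of which 65 genes were tested. With TGF-β, 1 was called higher and 3 lower in siRNA cells (median −0.08), and 34 higher and 2 lower in scramble cells (median 0.63). With the siRNA, 5 were called higher and 46 lower in TGF-β-treated cells (median −0.87), and 6 higher and 21 lower in vehicle-treated cells (median −0.27). None passed for the interaction (44 below 0 at an unadjusted p under 0.05, 20 called below 0 by DESeq2, 0 by limma-voom). Without the replicate 3 libraries 37 were called higher with TGF-β in scramble cells, 44 lower with the siRNA and TGF-β and 16 lower with the siRNA and vehicle. Dtl, which directs the destruction of Cdt1 in S phase, changed by −2.48 with the siRNA and TGF-β (standard error 0.17, adjusted p = 2.1e-06 by edgeR), and Clspn, the checkpoint adaptor of the fork, by −2.14 (adjusted p = 4.3e-06). Among those higher with the siRNA and TGF-β were Pold4, a small subunit of polymerase δ, by 0.47 (adjusted p = 0.00081), and Rrm2b, the p53-induced ribonucleotide reductase subunit, by 0.24 (adjusted p = 0.0099).

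Of 33 mitosis genes, 0 were called higher with TGF-β among scramble cells (19 at an unadjusted p under 0.05, 2 with DESeq2 and 1 with limma-voom), with a median of 0.46. There were 8 without the replicate 3 libraries. In siRNA cells all 33 lay below 0 with TGF-β (median −0.35), and 1, Cdc20, an activator of the anaphase-promoting complex, was called lower (13 at an unadjusted p under 0.05, or 7 called without the replicate 3 libraries). For the interaction none passed in edgeR, 27 lay below 0 at an unadjusted p under 0.05, and DESeq2 and limma-voom called 0. With the siRNA, 32 were called lower and 1, Spc24, higher in TGF-β-treated cells (median −2.05), and 28 lower and 1 higher in vehicle-treated cells (median −1.21). These counts of lower genes were 31 and 21 without the replicate 3 libraries. Mki67, the proliferation marker, had 934, 835 and 1115 normalized counts in siRNA cells with TGF-β, 1514, 1192 and 1059 in siRNA cells with vehicle, 4050, 4832 and 4957 in scramble cells with TGF-β and 2960, 2717 and 3993 in scramble cells with vehicle. Its siRNA libraries all lay below its scramble libraries. It was named as the usual marker, after its values were seen.

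Inhibitors and brakes of the cycle moved in both directions. Of 7 CDK inhibitors, 2 were called higher and 2 lower with the siRNA under TGF-β, against 1 in each direction under vehicle. Of 30 G1/S control genes, 1 was called higher and 19 lower, and 2 higher and 16 lower, in the same comparisons (medians −0.71 and −0.59). Of all genes tested, 13.0% were called higher and 11.3% lower with the siRNA under TGF-β, and 13.4% and 11.2% under vehicle. The inhibitor counts were equal without the replicate 3 libraries, and 19 and 15 control genes were called lower. Cdkn1a, the p21 inhibitor of Cdk2, had 16170, 15170 and 13030 normalized counts in siRNA cells with TGF-β, 17620, 16000 and 17300 in siRNA cells with vehicle, 6566, 5689 and 7151 in scramble cells with TGF-β and 6013, 5290 and 7260 in scramble cells with vehicle. The siRNA libraries were all above the scramble libraries, and the siRNA raised Cdkn1a by 1.19 with TGF-β and by 1.46 with vehicle on the log2 scale (adjusted p = 3.3e-05 and 1e-05 by edgeR). Rb1, the pocket protein that holds E2F factors, rose by 1.35 and 1.59 in the same comparisons (adjusted p = 3.9e-05 and 1.5e-05). The related pocket genes of the list, named here beside Rb1, went the other way. Rbl1 was called lower with the siRNA under both treatments and Rbl2 under vehicle only. Cdkn2b, the p15 inhibitor of Cdk4 and Cdk6, had 1171, 968 and 2354 normalized counts in siRNA cells with TGF-β, 337, 371 and 476 in siRNA cells with vehicle, 479, 545 and 653 in scramble cells with TGF-β and 436, 459 and 488 in scramble cells with vehicle. It rose with TGF-β in siRNA cells by 1.92 (adjusted p = 0.00066), whereas its value in scramble cells was 0.28 (adjusted p = 0.5), and the interaction of 1.64 did not pass (standard error 0.40, adjusted p = 0.11). Cdkn2c, the p18 inhibitor, changed by −1.19 with the siRNA and TGF-β and by −0.78 with the siRNA and vehicle (adjusted p = 0.0002 and 0.0033 by edgeR), and Cdkn2d, the p19 inhibitor, by −0.97 with TGF-β only (adjusted p = 0.0003, against −0.26 and adjusted p = 0.18 with vehicle). Cdkn1b, the p27 inhibitor, fell with TGF-β by 0.48 in siRNA cells and by 0.49 in scramble cells (adjusted p = 0.0025 and 0.002). Cdkn1c, the p57 inhibitor, fell by 2.47 and by 2.90 (adjusted p = 0.00031 and 0.00016).

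Markers of other cell types were present, those of macrophages at mean sums above that of the 41 replication genes in both vehicle groups, and some moved with the siRNA. The 9 cardiomyocyte markers summed to 188 to 218 normalized counts in siRNA cells with TGF-β, 278 to 321 in siRNA cells with vehicle, 1769 to 2266 in scramble cells with TGF-β and 2314 to 2580 in scramble cells with vehicle, with 2 of the 8 tested (Tnnt2 and Ryr2) called lower with the siRNA in both comparisons, and Myh7, Myl2 and Myl7 under 10 counts in every library. The 6 pericyte and smooth muscle markers summed to 473 to 1136, 1050 to 1773, 1505 to 3624 and 2199 to 5234 in the same order, with 0 of 5 called by edgeR with the siRNA and TGF-β (2 at an unadjusted p under 0.05, 2 by DESeq2 and 1 by limma-voom) or with the siRNA and vehicle (4, 1 and 0 by the same measures). The 12 macrophage markers summed to 12551 to 19298 in siRNA cells with TGF-β, 22105 to 23952 in siRNA cells with vehicle, 18803 to 20616 in scramble cells with TGF-β and 25373 to 27806 in scramble cells with vehicle, with Lyz2, C1qb and Mertk called lower with the siRNA and TGF-β, and C1qb and Mertk lower and Adgre1 and Itgam higher with the siRNA and vehicle. The 8 endothelial markers summed to 1472 to 1602 in siRNA cells with TGF-β, 1419 to 1823 in siRNA cells with vehicle, 1917 to 2568 in scramble cells with TGF-β and 2065 to 3235 in scramble cells with vehicle, so siRNA and scramble libraries did not overlap, and Tek was called lower with the siRNA in both comparisons. The 4 Schwann cell markers summed to at most 89.4 and the 6 lymphocyte markers to at most 20.7 in any library, with Cd3e and Cd3g at 0. Of the 10 fibroblast markers, Dcn was called higher and Pdgfrb, Tcf21, Thy1 and Lum lower with the siRNA and TGF-β. With the siRNA and vehicle, Col3a1 and Dcn were called higher and Pdgfrb and Thy1 lower. The part of other cell types or of a changed fibroblast state in the changes of the replication genes was not tested.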

How the data were processed

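RNA-seq of 12 libraries was used, 3 biological replicates in each of 4 groups. Libraries were made after depletion of ribosomal RNA and read from both ends. The authors ran Salmon against mm10 transcripts (both named, with DESeq2, in the submitters' notes too) and deposited, per transcript, estimated counts, TPM and effective lengths. The strand setting is not given in the sources used here. Reads from exon sequence that a member shares with a gene on the other strand may therefore not be told apart. Transcripts were matched by identifier to GENCODE M21 genes on GRCm38, and estimated counts were summed per gene and rounded. By gene span, 17 of the 41 members overlap another annotated gene, and whether exons are shared was not examined. Besides those named above, Gins2 overlaps Gm20388 and Gse1, Rfc2 overlaps Lat2, Rfc4 overlaps Eif4a2 and Rfc5 overlaps Wsb2. Tk1 overlaps Gm20708 and Afmid, Chaf1a overlaps Ubxn6 and Ccne2 overlaps Ints8, all on the other strand.

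Genes with a sum of 10 or more counts were tested with edgeR 4.0.16 in R 4.3.3, by the quasi-likelihood F test after TMM scaling. A single fit held the 4 groups. The p-values were adjusted by the Benjamini-Hochberg method, with 0.01 as the threshold. The standard error is the log2 fold change divided by the square root of F. DESeq2 1.42.0, limma 3.58.1, RLE factors, other filters, a transcript length offset, thinning, the compared groups alone, the replicate number as a block and leaving out each library were alternatives, and leaving out all replicate 3 libraries was added after seeing the data. Same-numbered libraries deviated together (correlation of deviations from the group means 0.331 to 0.723 in 18 pairs, against −0.627 to 0.34 in 36 pairs of other numbers). The numbers were therefore taken to pair the libraries. The main fit leaves this pairing out, and the replicate block takes it in. The test was tried on simulated counts drawn without a replicate effect, so that trial does not bear on the pairing.

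Members, lists and the rule for named genes (all members, up to 3 called genes per other list, direction and comparison with a mean of at least 100 normalized counts, and H1f0) were chosen with earlier results of these data known. Replicates are separate samples by the labels, and p-values measure the spread between them. Deposited TPM served only to rank levels.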

Additional observations from a re-analysis of the deposited data

Results flagged for a closer look

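In 13 members TGF-β moved every same-numbered pair of scramble libraries up and every pair of siRNA libraries down. Without Mcm4 and Wdr76 these were 11 of 39 members, against 2.04% of all genes tested (367 of 18028). The difference between the responses, on the log2 scale, was −0.56 for Orc6, −1.22 for Mcm4, −1.12 for Gins1, −0.43 for Gins4, −0.75 for Rfc3, −0.86 for Rfc4, −0.68 for Rfc5, −0.78 for Pola2, −0.93 for Pold1, −0.88 for Lig1, −0.98 for Tk1, −1.42 for Wdr76 and −0.56 for E2f1. Mcm4 and Wdr76 were listed for this pattern, so theirs are given as values alone. None of the other 11 passed edgeR's interaction test at an adjusted p under 0.01, and Pold1 and Lig1 passed with the replicate number as a block (adjusted p = 0.0066 and 0.0056 by edgeR).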

How the results depend on the processing

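Counts are of the 39 members. Leaving out each library in turn gave 17 to 33 called higher with TGF-β in scramble cells (medians 0.68 to 0.87). It gave 0 to 1 called lower with TGF-β in siRNA cells, 33 to 36 lower with the siRNA and TGF-β, 18 to 22 lower and 0 to 2 higher with the siRNA and vehicle, and 0 to 2 for the interaction. DESeq2 called 1 lower with TGF-β in siRNA cells and 12 for the interaction. With the replicate block these counts were 2 and 7, and 1 member was called higher with the siRNA and TGF-β. The 2 members called higher with the siRNA and vehicle were 1 with RLE factors, without a count minimum, with the length offset, after thinning or with the compared groups alone. Without all replicate 3 libraries, 2 were called lower with TGF-β in siRNA cells, 1 higher with the siRNA and TGF-β and 1 below 0 for the interaction, and the median with the siRNA and vehicle was −0.54 (−0.79 to −0.54 over all settings that left out libraries). No direction of a called value reversed in these alternatives, and the block changed no other call beyond those given in the report or here: Gins4, Pola1, Rfc4 and E2f1 were called higher with TGF-β in scramble cells, Gins4 lower with the siRNA and TGF-β, and Mcm10, Cdc45 and Chaf1a lower and Rrm1 higher with the siRNA and vehicle. The causes were not tested. With 3 replicates, changes of low genes such as Orc1 and Gins1 rest on few reads.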
